A study of Mesocricetus auratus with 24 samples.

Results

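Klf9, Sgk1, Fkbp5, Tsc22d3, Nfkbia, Ddit4, Cdkn1a, Zbtb16, Errfi1 and Nr3c1 are 10 genes of the response to glucocorticoids. Each was looked up among the array's probe sets that carry a single gene symbol, and 9 of the 10 had 1 such probe set, among 19938 genes in all. The probe set of Cdkn1a, a cell cycle inhibitor, also carried another symbol, so Cdkn1a was not used here. None of the 9 genes passed the test across all genes in any of 7 comparisons of strain and sound. In stimulated animals, Klf9, Nfkbia and Sgk1 nevertheless had the largest mean differences among the 9 in both strains. For 8 of the 9 the sound response was larger in 1 label series of animals than in the other, a difference that passed the test across all genes for none of them.

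The data are log2 probe set signals from 24 mouse whole-transcript arrays hybridised with RNA of the inferior colliculus (IC), the auditory midbrain centre. GASH:Sal is an inbred hamster line from Salamanca with genetic audiogenic seizures, that is, seizures set off by loud sound, and control Syrian hamsters have no such seizures. The 4 groups were stimulated GASH:Sal, naïve GASH:Sal, stimulated Syrian and naïve Syrian hamsters, with 6 arrays in each, all of animals aged 16 weeks. Stimulated animals of both strains received the same auditory stimulation, and their IC was taken 60 min later, which in GASH:Sal was after a seizure. Naïve animals received no sound. The difference between stimulated and naïve animals is called the sound response here. Sound, any handling that came with it and, in GASH:Sal, the seizure cannot be told apart in it. The labels name the animals in 2 styles, called label series A (replicates 1 to 3 of each group) and label series B (replicates 4 to 6) here. In series A the stimulated and the naïve animals also carry separate runs of numbers. No source used here says what these styles or numbers mean.

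Glucocorticoids, released by the adrenal cortex in stress and with a daily rhythm, bind the glucocorticoid receptor, which then moves to the nucleus and acts on the transcription of target genes. Many of these targets restrain inflammation, growth signalling or the hormone's own action, and in the brain they respond to stress and to seizures. Several of the genes also answer to other signals, such as NF-kappa-B, cellular stress or neuronal activity, so that a change in 1 of them is not specific to the hormone.

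The table gives no measure of detection, so signal above background was not tested for any of the 9 genes. Their mean signals stood at percentiles between 41.7 (Tsc22d3) and 93.1 (Klf9) of all genes tested, with Nr3c1 at 86.4 and Fkbp5 at 42.5. Mouse probes read hamster RNA, so these percentiles place a probe set and are not levels of expression, and levels were compared between arrays and not between genes. Array medians lay between 4.50 and 4.65 and array pairs correlated at 0.965 to 0.993. A pair of arrays stood apart with the lowest mean correlations with all others, stimulated Syrian 4 (0.969) and naïve GASH:Sal 6 (0.971). Without a measure of detection, the presence of IC markers was not tested either. The mean of 10 IC and tectum markers did not overlap between stimulated (6.68 to 6.80) and naïve (6.57 to 6.67) Syrian hamsters. Means of neuron, astrocyte, microglia and endothelium markers overlapped between the groups. In whole tissue, fewer cells of a type and less RNA per cell cannot be told apart.

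**Figure D1:**
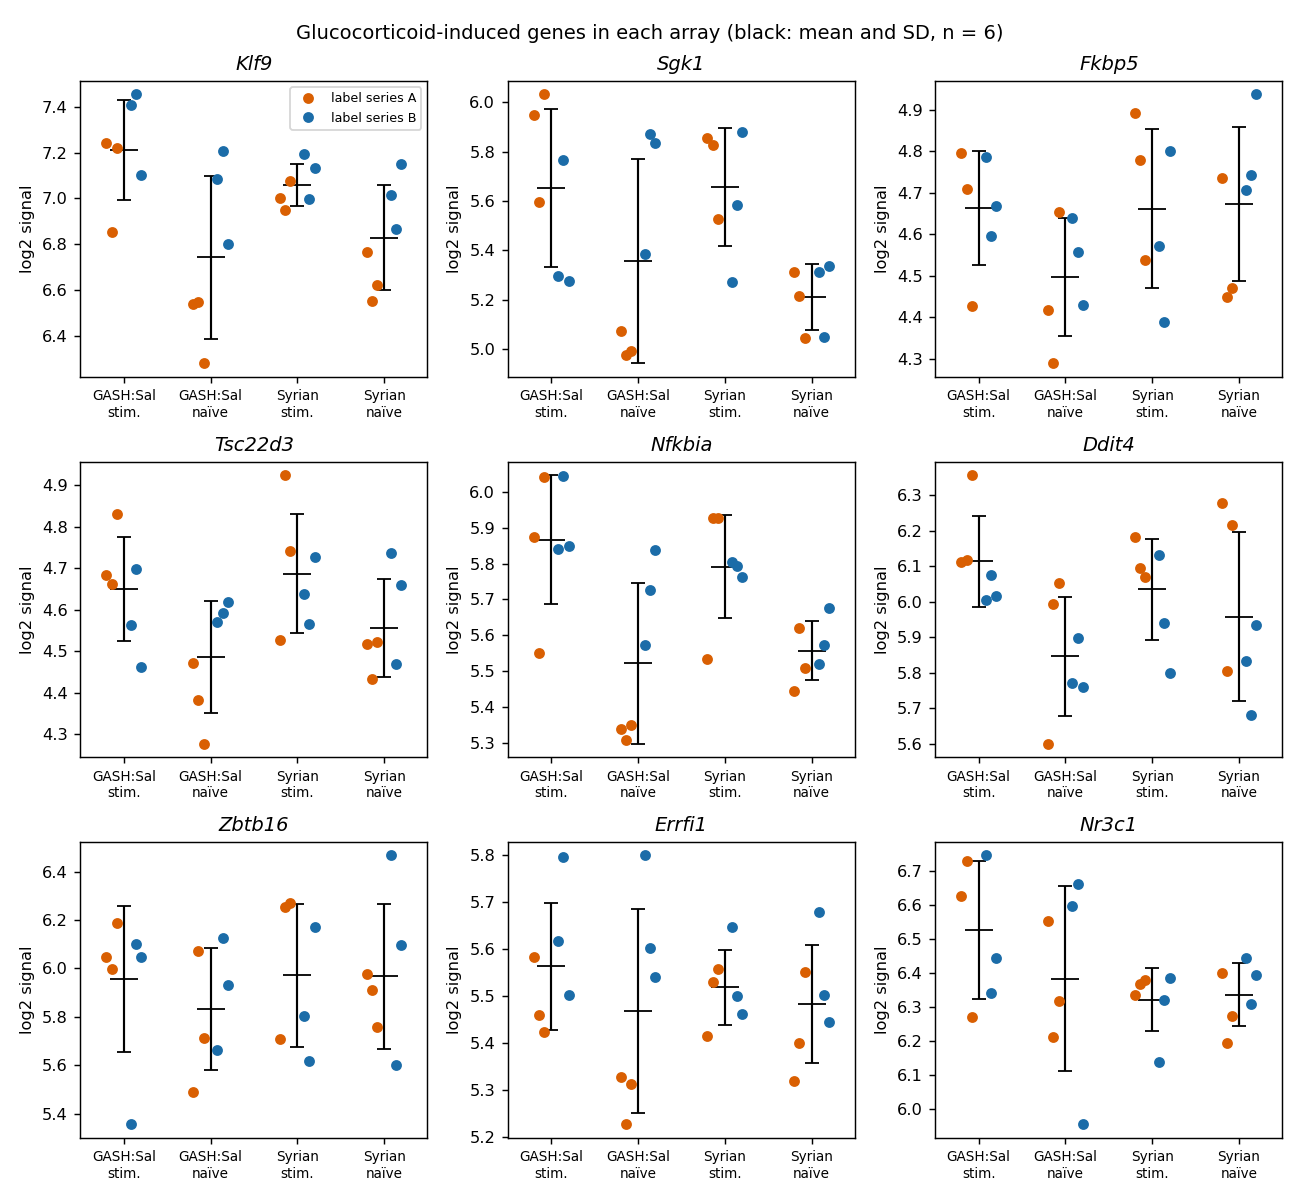
Log2 signal (vertical axis) of each of the 9 genes in every array, by group, with stimulated animals left of naïve animals within each strain. Orange points are label series A and blue points label series B, and black marks give the mean and SD of 6 arrays. The naïve GASH:Sal arrays of series A are the lowest of all arrays for Nfkbia, and for Sgk1 those of series B (5.38 to 5.87) lie among the stimulated arrays.

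The first question was how the genes differed after sound in the strain that has seizures. In stimulated against naïve GASH:Sal hamsters all 9 genes were higher, where 55.8% of all genes were. The median log2 difference of the 9 was 0.17, against a median of 0.013 over all genes. With limma and Benjamini-Hochberg adjustment over all genes, 0 of the 9 passed (0% of the 19938 genes passed). At an unadjusted p under 0.05, 3 of the 9 were higher, Klf9, Nfkbia and Ddit4, and 2.88% of all genes were called higher by that rule. The 6 arrays of each group did not separate for any of the 9 genes, and 0.15% of all genes had every stimulated GASH:Sal array above every naïve one. The median of the 9 was 0.32 (series A) and 0.10 (series B). Without naïve GASH:Sal 6 and stimulated Syrian 4, Sgk1 and Tsc22d3 joined the 3 genes, and 5 of the 9 were called higher at an unadjusted p, where 3.83% of all genes were.

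Klf9 encodes a zinc-finger transcription factor that is a direct target of the receptor and slows growth of neurites. Its lowest, median and highest log2 signals were 6.85, 7.23 and 7.45 in stimulated GASH:Sal hamsters, against 6.28, 6.67 and 7.20 in naïve GASH:Sal hamsters. Every stimulated array was above the naïve mean, yet the groups overlapped because 2 naïve arrays of series B reached 7.08 and 7.20. The log2 difference was 0.47 (SE 0.0968, a fold of 1.39, limma adjusted p = 0.347), the gene with the second lowest p of all genes. In Syrian hamsters the signals were 6.95, 7.04 and 7.20 after stimulation, against 6.55, 6.82 and 7.15 in naïve animals. There, too, all 6 stimulated arrays were above the naïve mean, with a difference of 0.23 (SE 0.0968, limma adjusted p = 0.726). For series A and B, Klf9 differed by 0.65 and 0.29 in GASH:Sal and by 0.36 and 0.10 in Syrian hamsters.

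Sgk1 is a kinase that controls ion channels and transporters, and it is among the fastest targets of the receptor and of the mineralocorticoid receptor. Its lowest, median and highest signals were 5.28, 5.68 and 6.03 in stimulated GASH:Sal hamsters, against 4.98, 5.23 and 5.87 in naïve ones. The naïve GASH:Sal group was split, with 5.07, 4.98 and 4.99 in series A and 5.38, 5.87 and 5.84 in series B. The log2 difference over all 12 arrays was 0.30 (SE 0.149), made up of 0.84 (series A) and -0.25 (series B). In Syrian hamsters the signals were 5.27, 5.70 and 5.88 after stimulation, against 5.04, 5.26 and 5.34 in naïve animals. All but 1 of the stimulated Syrian arrays, replicate 4, lay above every naïve Syrian array, and the log2 difference was 0.45 (SE 0.149, limma adjusted p = 0.719).

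Nfkbia and Tsc22d3 are inhibitors through which glucocorticoids damp inflammatory transcription. Nfkbia holds NF-kappa-B in the cytoplasm and is also a target of NF-kappa-B itself. Its signals were 5.55, 5.86 and 6.04 (lowest, median, highest) in stimulated GASH:Sal hamsters, against 5.31, 5.46 and 5.84 in naïve GASH:Sal hamsters. The log2 difference was 0.34 (SE 0.0889, limma adjusted p = 0.993), with all 6 stimulated arrays above the naïve mean. In Syrian hamsters Nfkbia had 5.53, 5.80 and 5.93 after stimulation, against 5.45, 5.55 and 5.68 in naïve animals. Replicate 1 was the single stimulated Syrian array within the naïve range, and the difference was 0.23 (SE 0.0889). Nfkbia, like Klf9 and Ddit4, kept its sign in both strains and both label series. For series A and B, Nfkbia differed by 0.49 and 0.20 in GASH:Sal and by 0.27 and 0.20 in Syrian hamsters. Among 10 other targets of NF-kappa-B, 5 were above 0 in the GASH:Sal comparison and 4 in the Syrian one. None of the 10 was called at an unadjusted p, which is near the share over all genes. That share was 2.88% higher and 1.58% lower in GASH:Sal, and 4.35% and 2.29% in Syrian hamsters. Tsc22d3, the leucine zipper protein GILZ, differed by 0.16 (SE 0.0816) in GASH:Sal hamsters, at 0.35 (series A) and -0.02 (series B). In Syrian hamsters it differed by 0.13 (SE 0.0816), at 0.24 (series A) and 0.02 (series B).

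Ddit4 and Errfi1 act against growth signalling, Ddit4 by inhibiting mTORC1 and Errfi1 by inhibiting the EGF receptor. Ddit4 had 6.005, 6.09 and 6.36 in stimulated GASH:Sal hamsters, against 5.60, 5.83 and 6.05 in naïve ones (lowest, median, highest). The stimulated arrays were all above the naïve mean, with a log2 difference of 0.27 (SE 0.0879, limma adjusted p = 0.999), close in series A (0.31) and series B (0.22). In Syrian hamsters Ddit4 differed by 0.08 (SE 0.0879), with signals from 5.80 to 6.18 after stimulation inside the naïve range of 5.68 to 6.28. Errfi1 differed by 0.10 (SE 0.0770) in GASH:Sal and by 0.04 (SE 0.0770) in Syrian hamsters. Ddit4 is also a target of ATF4, a factor of the stress response. On a list of 7 genes, Atf4 and 6 of its other targets, 5 were below 0 for sound in GASH:Sal hamsters. The 1 gene called higher at an unadjusted p was Atf4 itself (0.20, SE 0.0910), not a target, beside 2.88% of all genes.

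Fkbp5 and Nr3c1 belong to the receptor's own circuit. Nr3c1 is the glucocorticoid receptor, and Fkbp5 is a co-chaperone that the receptor induces and that lowers the receptor's affinity for the hormone. Fkbp5 had 4.43, 4.69 and 4.79 in stimulated GASH:Sal hamsters, against 4.29, 4.49 and 4.65 in naïve GASH:Sal hamsters, a difference of 0.17 (SE 0.0940). In Syrian hamsters its difference was -0.01 (SE 0.0940), made up of 0.19 (series A) and -0.21 (series B). Nr3c1 had 6.27, 6.54 and 6.74 in stimulated GASH:Sal hamsters, against 5.96, 6.44 and 6.66 in naïve ones, a difference of 0.14 (SE 0.101). Its Syrian difference was -0.01 (SE 0.101). Of 10 tested genes of the receptor and its partners, none was called at an unadjusted p for sound in either strain. Of all genes, 2.88% were called higher and 1.58% lower in GASH:Sal, and 4.35% and 2.29% in Syrian hamsters, so 0 of 10 is near that share. The medians of the 10 were 0.047 in GASH:Sal and 0.004 in Syrian hamsters. Zbtb16, a zinc-finger repressor strongly induced by glucocorticoids in several human cell types, differed by 0.12 (SE 0.146) in GASH:Sal and by 0.00 (SE 0.146) in Syrian hamsters.

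**Figure D2:**
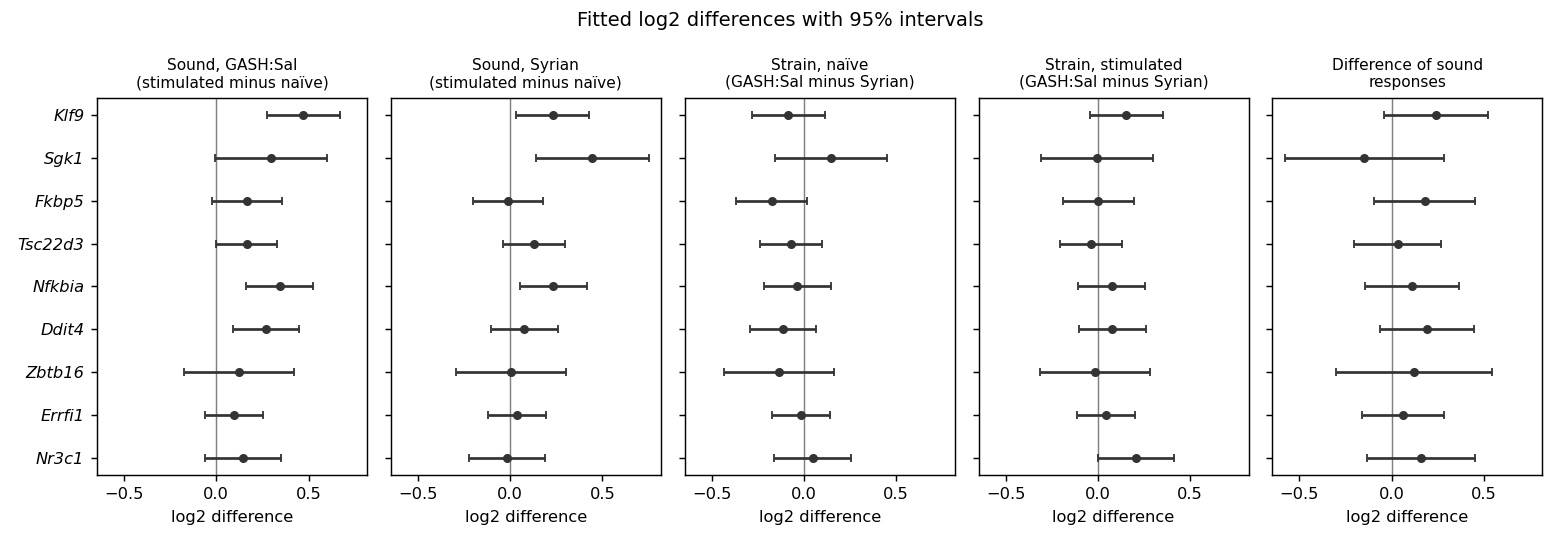
Fitted log2 differences (horizontal axis, in log2 units) of the 9 genes with 95% intervals, for the sound response in GASH:Sal and in Syrian hamsters, the strain difference in naïve and in stimulated animals, and the difference of the sound responses. The intervals for Klf9 and Nfkbia exclude 0 for sound in both strains, and all intervals of the strain differences and of the difference of the responses include 0.

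In stimulated against naïve Syrian hamsters 7 of the 9 genes were higher, where 57.5% of all genes were. The median log2 difference of the 9 was 0.08 (0.019 over all genes). After adjustment 0 of the 9 passed, as for all genes (0%). At an unadjusted p under 0.05, 3 of the 9 were higher, Klf9, Sgk1 and Nfkbia, where 4.35% of all genes were. The call of Klf9 was lost in the fit without label series and in 4 of 24 fits that each left out 1 array (naïve Syrian 2 or 5, stimulated Syrian 1 or 3). No gene of the 9 separated the stimulated from the naïve Syrian arrays, as 0.196% of all genes did with the stimulated arrays higher. The mean of 10 IC and tectum markers did not overlap between these groups, at 6.68 to 6.80 in stimulated against 6.57 to 6.67 in naïve Syrian hamsters. Its part in the Syrian values was not tested.

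Averaged over both strains, the 9 genes were all higher after sound, where 58.3% of all genes were. The median of the 9 was 0.15 against 0.015 over all genes. Klf9 (0.35, limma adjusted p = 0.114), Nfkbia (0.29, adjusted p = 0.141) and Sgk1 (0.37, adjusted p = 0.359) came nearest to the threshold. Of the 9, 0 passed, and 1 gene of all passed (0.00502%), Fos, an immediate-early gene of neuronal activity, at 0.58 (adjusted p = 0.00222). At an unadjusted p, 5 of the 9 were higher (Klf9, Sgk1, Tsc22d3, Nfkbia and Ddit4), against 5.22% of all genes.

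The second question was whether the strains differed before sound. In naïve GASH:Sal against naïve Syrian hamsters 7 of the 9 genes were lower and 2 higher, where 45.8% of all genes were higher. The median log2 difference of the 9 was -0.07 (-0.011 over all genes). None of the 9 was called, either adjusted (0% of all genes) or at an unadjusted p under 0.05 (6.02% of all genes in either direction). Fkbp5 had the largest difference, with 4.29, 4.49 and 4.65 in naïve GASH:Sal hamsters, against 4.45, 4.72 and 4.94 in naïve Syrian hamsters. All 6 GASH:Sal arrays were below the Syrian mean, and the difference was -0.18 (SE 0.0940, 95% interval -0.37 to 0.02). Zbtb16 (-0.14), Ddit4 (-0.11), Klf9 (-0.09), Tsc22d3 (-0.07), Nfkbia (-0.04) and Errfi1 (-0.01) followed, each with an interval that included 0. Sgk1 was 0.14 (SE 0.149) and Nr3c1 0.05 (SE 0.101). Without naïve GASH:Sal 3 the median of the 9 was -0.022. Of the 10 IC and tectum markers, 5 were above 0 and 5 below 0 in this comparison, with a median of 0.05. At an unadjusted p, 4 were called higher, Tfap2b (0.38), Calb2 (0.29), Gata3 (0.26) and Gad2 (0.19), where 2.29% of all genes were. In series A and B, Tfap2b was 0.15 and 0.61, Calb2 0.06 and 0.52, Gata3 0.08 and 0.44, and Gad2 0.19 and 0.18. The part of these markers in the naïve values was not tested.

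The naïve strain difference was also taken within each label series. The median of the 9 genes was -0.13 in series A, where 1 of 9 was above 0, and 0.02 in series B, where 5 of 9 were. Sgk1 differed by -0.18 between the naïve strains in series A and by 0.46 in series B, and Nfkbia by -0.19 and 0.12. The difference between the series in the Sgk1 strain difference was -0.64 (SE 0.223), which did not pass over all genes (limma adjusted p = 0.645), and no gene of all passed there (1288 at an unadjusted p under 0.05).

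After sound, 6 of the 9 genes were higher in stimulated GASH:Sal than in stimulated Syrian hamsters, where 44.0% of all genes were. The median of the 9 was 0.05. None was called, adjusted (0% of all genes) or unadjusted (5.42% in either direction). Nr3c1 had the largest difference, with 6.27, 6.54 and 6.74 in stimulated GASH:Sal hamsters, against 6.14, 6.35 and 6.38 in stimulated Syrian hamsters. Its difference was 0.20 (SE 0.101), at 0.18 (series A) and 0.23 (series B), and its interval reached -0.002. Klf9 followed with 0.15 (SE 0.0968).

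The difference of the sound responses sets the strain difference after sound against that before it. The response was larger in GASH:Sal than in Syrian hamsters for 8 of the 9 genes, and for 49.0% of all genes. The median difference of the 9 was 0.12 (-0.003 over all genes). None of the 9 was called, adjusted (0% of all genes) or unadjusted (3.68% in either direction), so no gene's response was shown to differ between the strains. The values were 0.24 for Klf9 (SE 0.137, 95% interval -0.04 to 0.52), 0.19 for Ddit4 (SE 0.124), 0.18 for Fkbp5 (SE 0.133) and 0.16 for Nr3c1 (SE 0.143). Sgk1 alone was below 0, at -0.15 (SE 0.211), with 0.30 (series A) and -0.60 (series B). For Fkbp5 the naïve difference of -0.18 and the stimulated difference of 0.00 make up the value, whereas for Nr3c1 they are 0.05 and 0.20. Over both sound conditions, 5 of the 9 were higher in GASH:Sal hamsters, where 42.6% of all genes were, with a median of 0.02. Of the 9, 0 were called, where 0.01% of all genes passed the adjusted and 7.99% the unadjusted test.

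**Figure D3:**
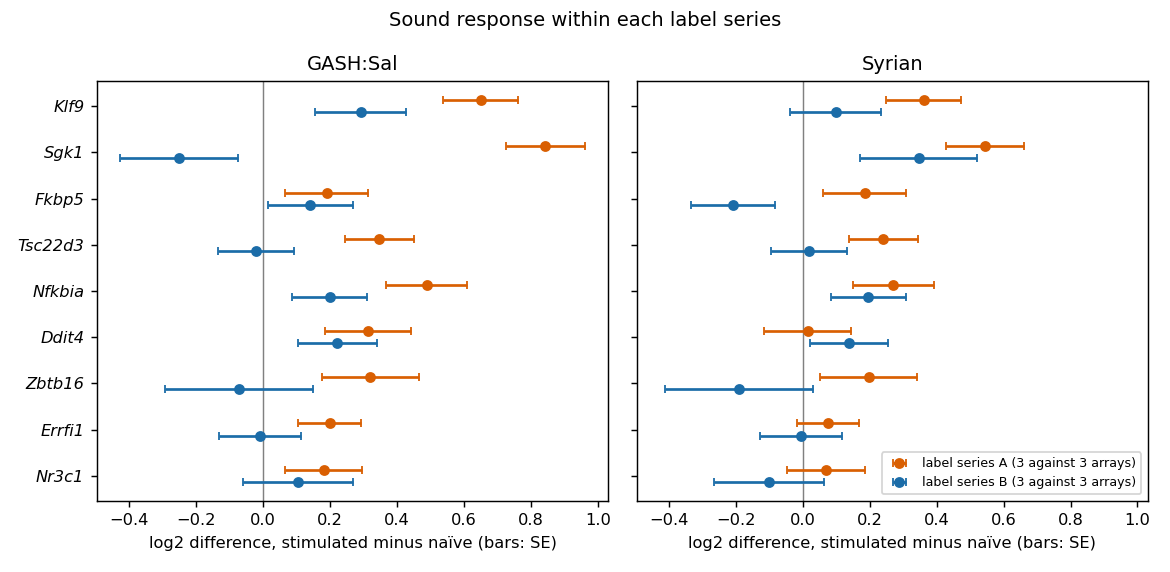
Log2 difference between stimulated and naïve animals (horizontal axis, with SE) of each gene within label series A (orange) and series B (blue), 3 against 3 arrays each, for GASH:Sal and Syrian hamsters. All 9 genes lie above 0 in series A in both strains, and Sgk1 in GASH:Sal is at 0.84 (series A) and -0.25 (series B).

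Within label series A, each of the 9 genes was above 0 in both strains. The fit of series A alone called Sgk1 (0.84, SE 0.118, limma adjusted p = 0.0134) and Klf9 (0.65, SE 0.112, adjusted p = 0.0454) in GASH:Sal hamsters, so that 2 of the 9 rose, where 0.0351% of all genes passed. In Syrian hamsters of series A, 0 of the 9 passed (0.0251% of all genes), with Sgk1 nearest at 0.54 (SE 0.118, adjusted p = 0.0637). Over both strains in series A, 4 of the 9 rose, Sgk1 (0.69, adjusted p = 0.00136), Klf9 (0.51, adjusted p = 0.00445), Nfkbia (0.38, adjusted p = 0.0299) and Tsc22d3 (0.29, adjusted p = 0.0409). Of all genes, 2.23% passed there. In series B alone 0 of the 9 passed in either strain or over both, as for all genes (0%).

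The calls of series A rest on 3 arrays a group. Leaving out each of its 12 arrays in turn, Sgk1 and Klf9 over both strains passed in all 12 fits. Nfkbia passed in 5 and Tsc22d3 in 2 of the 12, with adjusted p up to 0.0809 and 0.111. In GASH:Sal alone, Sgk1 passed in 7 and Klf9 in 2 of the 12 fits, with adjusted p up to 0.188 and 0.310. Sgk1 failed there whenever 1 of the 3 naïve GASH:Sal arrays, stimulated GASH:Sal 1 or stimulated GASH:Sal 3 was left out. Klf9 passed only without naïve Syrian 2 or stimulated GASH:Sal 2. Over the same 12 fits, genes passing among all numbered 0 to 19 in GASH:Sal, 0 to 123 in Syrian hamsters and 100 to 484 over both strains.

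In series A, 6 of the 9 genes had all 3 stimulated GASH:Sal arrays above all 3 naïve ones (Klf9, Sgk1, Tsc22d3, Nfkbia, Ddit4 and Errfi1), and 9.6% of all genes did. The Syrian arrays of series A separated in this way for Klf9, Sgk1 and Tsc22d3, 3 of the 9, against 11.3% of all genes. In series B, Nfkbia and Ddit4 separated in GASH:Sal hamsters, 2 of the 9 against 5.23% of all genes, and Nfkbia alone in Syrian hamsters, 1 of the 9 against 6.44%.

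The series were then compared in a single fit with 8 means, 1 for each group in each series, chosen after seeing the data. For the series A response over both strains this fit called 3 of the 9, Sgk1 (limma adjusted p = 0.00620), Klf9 (0.0131) and Nfkbia (0.0462), and not Tsc22d3 (0.0802), where 0.311% of all genes passed. Over 24 fits that each left out 1 array, Sgk1 passed in all and Nfkbia in 8. Klf9 passed in 21, failing without naïve Syrian 2, naïve GASH:Sal 3 or stimulated GASH:Sal 3 (adjusted p up to 0.0667). The sound response over both strains was larger in series A than in series B for 8 of the 9 genes, with a median difference of 0.22 (-0.013 over all genes). None of the 9 passed, where 0.00502% of all genes did, so the difference between the series was not established for any of them. It was 0.65 for Sgk1 (SE 0.158, limma adjusted p = 0.108), 0.31 for Klf9 (SE 0.126, adjusted p = 0.299) and 0.29 for Tsc22d3 (SE 0.105, adjusted p = 0.243). Sgk1 passed in 1 of 24 fits that each left out 1 array, that without stimulated GASH:Sal 5 (adjusted p = 0.0480). Without the 2 arrays that stood apart, 0.176% of all genes passed (35 genes) and again none of the 9, with Sgk1 at an adjusted p of 0.103. Ddit4 was the exception at -0.02 (SE 0.127). Fos differed between the series by 0.09 (SE 0.174), at 0.62 (series A) and 0.54 (series B). Of 15 immediate-early genes, Fos among them, 13 had a larger response in series A, with a median difference of 0.13. All 7 astrocyte markers also had a larger response in series A, with a median difference of 0.15, and their part in these values was not tested.

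The naïve animals of the series differed. In naïve hamsters of series B against those of series A, 8 of the 9 genes were higher, with a median of 0.17 (0.019 over all genes). Klf9 was 7.02 ± 0.16 in series B and 6.55 ± 0.16 in series A (SD, n = 6 each), a log2 difference of 0.47 (SE 0.0891, limma adjusted p = 0.00259). It was the 1 of the 9 that passed, where 4.74% of all genes did, and it passed in each of 24 fits that left out 1 array. Sgk1 (0.36, adjusted p = 0.0575) and Errfi1 (0.24, adjusted p = 0.0581) stood just above the threshold. Sgk1 passed in 4 of those 24 fits, and Errfi1 passed in the fit without stimulated Syrian 4 and in that without both arrays that stood apart (0.26, adjusted p = 0.0333). Ddit4 was the 1 gene that was lower, at -0.18. In stimulated hamsters of series B against series A, 3 of the 9 were higher, the median was -0.06, and none passed (1.92% of all genes). These comparisons share arrays with the difference of the responses and are not separate evidence of it. Label series and any difference in housing, handling or processing between them cannot be told apart.

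**Figure D4:**
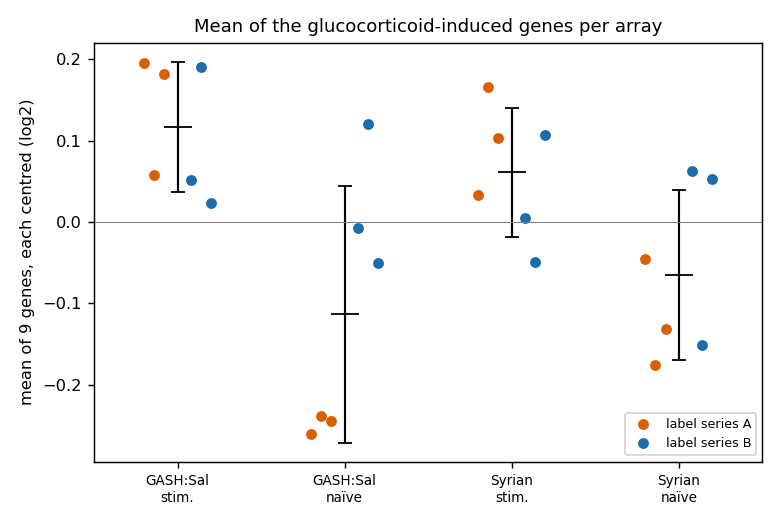
Mean over the 9 genes, each centred on its mean over all arrays (vertical axis, log2 units), in every array by group, with series A in orange, series B in blue while black marks give mean and SD of 6 arrays. The 3 naïve GASH:Sal arrays of series A are the lowest of all, between -0.26 and -0.24, and naïve GASH:Sal 5 of series B is at 0.12.

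The mean of the 9 genes in each array, a description with no test, lay between 0.02 and 0.20 in stimulated GASH:Sal hamsters. In naïve GASH:Sal hamsters it was -0.26, -0.24 and -0.24 in series A and -0.01, 0.12 and -0.05 in series B. It ranged from -0.05 to 0.17 in stimulated Syrian hamsters and from -0.18 to 0.06 in naïve Syrian hamsters. The naïve GASH:Sal arrays of series A were thus lower than every other array. In series B, naïve GASH:Sal 5 (0.12) lay within the range of both stimulated groups. Naïve GASH:Sal 4 lay within that of stimulated Syrian hamsters only, and naïve GASH:Sal 6 within neither.

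The 9 genes followed each other in part. After the mean of each label series was removed, the median Pearson r over the 36 pairs was 0.32 across the 24 arrays, and 33 pairs were above 0. The arrays share their groups, and once the mean of each group within each series was removed the median was 0.09, with 25 pairs above 0. Klf9 and Nfkbia had the highest r, 0.75, which was 0.24 within groups and series. Nr3c1 followed the others least, with a median r of 0.09.

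Genes whose signal followed the 9 most closely were looked for among all genes. Hsph1, a chaperone of the heat shock response, had the highest r with the mean of the 9 (0.90 across 24 arrays), with Klf9 (0.84) and with Sgk1 (0.84). Per1, a clock gene that glucocorticoids also induce, had the highest r with Nfkbia (0.88) and an r of 0.87 with the mean of the 9. Within groups and series these values were 0.74, 0.67, 0.61, 0.72 and 0.61. Without the 2 arrays that stood apart, r of Hsph1 and of Per1 with the mean of the 9 was 0.90 and 0.92. For the rest of the 9, the closest genes were Cmas for Tsc22d3 (0.79), Olfr202 for Fkbp5 (0.76) and 4930568D16Rik for Ddit4 (0.77). Ddx31 was closest to Zbtb16 (0.72), Cox4i2 to Errfi1 (0.70) and Bmpr1a to Nr3c1 (0.81). After Hsph1, the genes closest to Klf9 were Klf7 (0.82), Yy1 (0.81), Mobp (0.81) and Per1 (0.81). After Hsph1 and Per1, those closest to the mean of the 9 were Arf1 (0.83), Id2 (0.82) and Rgs2 (0.81). Olfr202 and 4930568D16Rik stood at percentiles 11.1 and 6.2 of signal. Each r is among the highest of all genes, so a high value alone is not evidence of a link. The sound response of Hsph1 over both strains was 0.45 in series A (limma adjusted p = 0.00383) and 0.05 in series B. That of Per1 was 0.53 in series A (limma adjusted p = 0.0131) and 0.07 in series B. The difference between the series did not pass for Hsph1 (0.41, limma adjusted p = 0.0968) or for Per1 (0.45, limma adjusted p = 0.157). Both genes were picked for following the 9 across arrays with group differences kept. A response by series like that of the 9 is therefore favoured by that choice and is not separate evidence.

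A wider list of 24 other genes induced by glucocorticoids had smaller medians for sound. In stimulated against naïve GASH:Sal hamsters 17 of the 24 were above 0 with a median of 0.05, and 3 were called higher at an unadjusted p, Per1 (0.37, SE 0.118), Bcl6, a transcriptional repressor (0.22, SE 0.104), and Mt2, a metallothionein (0.22, SE 0.0950), beside the 2.88% of all genes. In Syrian hamsters 13 of the 24 were above 0 with a median of 0.01, and Dusp1, a phosphatase of MAP kinases, was the 1 gene called higher (0.26, SE 0.0892), beside 4.35% of all genes. Dusp1 differed by -0.01 in GASH:Sal hamsters. Between the naïve strains 18 of the 24 were below 0 with a median of -0.06, and both metallothioneins were called lower, Mt1 at -0.36 (SE 0.116) and Mt2 at -0.22 (SE 0.0950), where 3.74% of all genes were called lower. After sound 2 of the 24 were called between the strains, beside 5.42% of all genes, Cebpb, a transcription factor, at 0.37 (SE 0.110) and Dusp1 at -0.32 (SE 0.0892). Both were also called for the difference of the sound responses, Cebpb at 0.34 (SE 0.155) and Dusp1 at -0.27 (SE 0.126), beside 3.68% of all genes. Over both sound conditions 6 of the 24 were called for strain in either direction, beside 7.99%. None of the 24 passed over all genes in any of the 7 comparisons.

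The other lists near these genes gave no calls over all genes for the sound response within either strain. Of 15 immediate-early genes, which neuronal activity induces, 14 were above 0 in GASH:Sal with a median of 0.31, and 13 in Syrian hamsters with a median of 0.07. Over both strains their median was 0.24 (series A) and 0.15 (series B), beside 0.26 and 0.00 for the 9 genes. Medians for sound in GASH:Sal were 0.05 for 7 thyroid hormone response genes, 0.07 for 6 genes of growth factor receptor feedback and -0.002 for 10 p53 targets. Among the marker lists, that of oligodendrocytes (5 of 6 tested) ranged from 6.03 to 6.23 in stimulated and from 5.89 to 6.23 in naïve GASH:Sal hamsters. Of its 5 genes, 4 were above 0 and 1 below 0 for sound in GASH:Sal hamsters, and likewise over both strains. At an unadjusted p, Mog (0.22, SE 0.0881) and Mobp (0.20, SE 0.0772) were called higher in GASH:Sal hamsters, beside 2.88% of all genes. Over both strains 3 of the 5 were, beside 5.22% of all genes. Mobp, a myelin protein, had an r of 0.81 with Klf9 across the 24 arrays. The part of these markers in the values of the 9 genes was not tested.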

How the data were processed

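RNA of the IC from 24 hamsters was measured on mouse whole-transcript arrays. The authors deposited log2 probe set signals after RMA (version not given in the sources used here), a method of background correction, normalisation across arrays and probe summary. Array data have no read depth, and the number of arrays limits the precision.

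Of 35556 probe sets, 21789 carried 1 gene symbol in the platform annotation and gave 19938 genes (the highest-mean probe set for each gene). Each of the 9 genes had a single probe set. All 24 arrays were fitted with limma 3.58.1 (R 4.3.3, lmFit and eBayes defaults) with 4 group means and the label series, 19 residual degrees of freedom, and two-sided p-values adjusted by the Benjamini-Hochberg method over all genes at 0.05. The labels call the arrays biological replicates. The script was tested on simulated data. Alternatives and fits leaving out each array are given in the closing section. The genes and lists were chosen with earlier results of these data known. A rule set which genes could be named beside the 9. It took up to 3 genes of each list and comparison, with an unadjusted p under 0.05 and the largest difference. Genes passing over all genes were included. So was the gene of highest correlation with each of the 9 (5 for Klf9 and for the mean). Not all of these genes are named in the text. Values of Fos by series, Hsph1 and Per1 by series, and Dusp1 in GASH:Sal were added after they were seen.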

Additional observations from a re-analysis of the deposited data

Results flagged for a closer look

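In 40 groups of 6 arrays, over the 9 genes and their mean, the gap between the most extreme array and the next was set against the range, a rule that chance meets in about 1 in 20 groups. It was met in 3. Ddit4 was 6.36 in stimulated GASH:Sal 3, against 6.005 to 6.118 in the other 5 arrays of its group. Zbtb16 was 5.36 in stimulated GASH:Sal 4, against 5.999 to 6.188 in the others. Nr3c1 was 6.14 in stimulated Syrian 4, against 6.32 to 6.38 in the others, and that array also had the lowest mean correlation with all other arrays. What set these values apart was not tested.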

How the results depend on the processing

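The contrasts were refitted under 12 other settings and without each of the 24 arrays in turn. The sound response in GASH:Sal hamsters kept its sign for each of the 9 genes under every setting that tested it except series B alone. Fkbp5 and Tsc22d3 were not in the fit of genes above the median signal. No member passed over all genes within a strain except in series A alone. Over both strains Klf9, Sgk1 and Nfkbia passed with array weights (limma adjusted p = 0.0212, 0.0287 and 0.0212), and Klf9 without naïve GASH:Sal 5 (0.0297) or stimulated GASH:Sal 6 (0.0321). Under the 12 settings, reversed values lay between -0.035 and 0.029 or came from a single label series. Without 1 array at a time they reached 0.11, for the stimulated strain difference of Zbtb16 without stimulated GASH:Sal 4. The cause of the reversals was not tested. Leaving out the 2 arrays that stood apart, and the fit of 8 means, were chosen after seeing the data. Tsc22d3 and Fkbp5 stand below the median percentile of signal, and whether this limits their values was not tested. Hamster RNA on mouse probes may be read unevenly. Motif counts in promoters were not run, as no promoter sequences were at hand.

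In series A alone, 7 genes passed for sound in GASH:Sal and 5 in Syrian hamsters (0 in the full fit for each), and 444 over both strains (1 in the full fit), where the fit of 8 means gave 62. Leaving out each of the 12 arrays, these ranged from 0 to 19, 0 to 123 and 100 to 484. The medians of the 9 genes were 0.32, 0.20 and 0.26, and 7 of the 9 were at an unadjusted p under 0.05 in GASH:Sal. The share of all genes at that limit was not counted in series A alone, so this count has no background beside it. Signs turned for Syrian sound in Fkbp5 (0.19) and Nr3c1 (0.070), for the naïve strain difference in Sgk1 (-0.18), for the stimulated one in Sgk1 (0.12), Fkbp5 (-0.093), Zbtb16 (0.00023) and Errfi1 (-0.012), and for the difference of responses in Sgk1 (0.30). The strain difference over both conditions turned in Klf9 (-0.048), Sgk1 (-0.026), Nfkbia (-0.084) and Errfi1 (-0.073).

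In series B alone, 0 genes passed over both strains, where the median of the 9 was 0.0024. For sound, members at an unadjusted p numbered 1 in GASH:Sal, 0 in Syrian hamsters and 2 over both strains. They numbered 1 for the naïve strain difference and for the difference of responses, in both cases Sgk1. The share of all genes at that limit was not counted in series B alone. Signs turned for GASH:Sal sound in Sgk1 (-0.25), Tsc22d3 (-0.020), Zbtb16 (-0.072) and Errfi1 (-0.0088), for Syrian sound in Zbtb16 (-0.19) and Errfi1 (-0.0048), and over both strains in Fkbp5 (-0.033), Zbtb16 (-0.13) and Errfi1 (-0.0068). They turned for the naïve strain difference in Klf9 (0.020), Nfkbia (0.12) and Errfi1 (0.11), for the difference of responses in Tsc22d3 (-0.040) and Errfi1 (-0.0040), and for the strain difference over both conditions in Ddit4 (0.035).

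Scalings gave small values of opposite sign. With median centring these were Syrian sound in Zbtb16 (-0.0029), the naïve strain difference in Errfi1 (0.018), the stimulated one in Sgk1 (0.019) and Zbtb16 (0.0089), and the strain difference over both conditions in Ddit4 (0.011). With quantile normalisation they were the naïve strain difference in Errfi1 (0.0038) and the stimulated one in Sgk1 (0.0089). With array weights they were Syrian sound in Fkbp5 (0.026) and Ddit4 (-0.011), the stimulated strain difference in Fkbp5 (-0.035) and the strain difference over both conditions in Sgk1 (-0.0021). Without stimulated Syrian 4 and naïve GASH:Sal 6 they were Syrian sound in Fkbp5 (0.014) and Nr3c1 (0.029), the stimulated strain difference in Fkbp5 (-0.024), and the strain difference over both conditions in Sgk1 (-0.016), Nfkbia (-0.010) and Ddit4 (0.0016).

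Genes passing for GASH:Sal sound numbered 1 with genes above the median signal, with trend and robust and with array weights. For the naïve strain difference (0 in the full fit) they numbered 2 above the median signal, 1 with median centring, 18 with array weights and 64 without the 2 arrays that stood apart. For sound over both strains they numbered 14 with array weights and 2 without the 2 arrays. For the strain difference over both conditions (2 in the full fit) they numbered 0 without the label series and in each series alone, 5 with median centring, 4 with quantile normalisation, 19 with array weights and 36 without the 2 arrays. Members at an unadjusted p for Syrian sound numbered 2 without the label series, which lost Klf9. For GASH:Sal sound they numbered 5 with array weights and without the 2 arrays. Without the 2 arrays, 3.83% of all genes were called higher there. No such share was counted for the member counts under the other settings. For the stimulated strain difference 1 was called with the groups alone, median centring and trend and robust, for the naïve one and the difference of responses 1 with array weights, and over both conditions 1 with median centring, array weights and without the 2 arrays.

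Same-numbered animals showed no shared deviation once the mean of each group within each series was removed (mean r between -0.068 and 0.014). This does not show that the animals were unpaired, and the main fit did not pair them. With the replicate block, 0 genes passed for the strain difference over both conditions, and no other call changed.

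Without 1 array at a time, genes passing ranged from 0 to 1 for GASH:Sal sound, 0 to 13 for the naïve strain difference, 1 to 12 for sound over both strains and 0 to 36 for the strain difference over both conditions. Members at an unadjusted p ranged from 3 to 5 for GASH:Sal sound, 2 to 3 for Syrian sound and 0 to 2 for the stimulated strain difference. They ranged from 0 to 1 for the naïve one, the difference of responses and the strain difference over both conditions. The share of all genes at that limit was not counted in these fits. Values that changed sign were Syrian sound in Fkbp5 (-0.066 to 0.052), Zbtb16 (-0.070 to 0.11) and Nr3c1 (-0.044 to 0.024), the naïve strain difference in Errfi1 (-0.066 to 0.019) and Nr3c1 (-0.012 to 0.14), and the difference of responses in Tsc22d3 (-0.0077 to 0.086). For the stimulated strain difference they were Sgk1 (-0.090 to 0.078), Tsc22d3 (-0.078 to 0.015), Zbtb16 (-0.086 to 0.11) and Fkbp5 (-0.061 to 0.056), and over both conditions Ddit4 (-0.041 to 0.018), Nfkbia (-0.0064 to 0.046) and Errfi1 (-0.011 to 0.032).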
